A study of Homo sapiens with 6 samples.

Results

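ATP-binding cassette (ABC) proteins couple the hydrolysis of ATP to transport or to other mechanical work, and their genes carry a letter from A to G for the subfamily. Members were taken as the protein-coding genes of GENCODE release 29 with such a symbol followed by a number, which gave 45 of the 58735 gene IDs in the count table. In gut epithelium and its tumours, subfamily C proteins export drugs and conjugated anions, some B and G proteins export drugs, bile acids or sterols, and A proteins mostly move lipids. Subfamily D proteins serve peroxisomes and lysosomes, and E and F proteins have no membrane domain and act on ribosomes. TAP1, TAP2 and CFTR belong to the same superfamily but carry other symbols, so they are described with the context genes.

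The libraries came from HCT116, an established human colorectal carcinoma line. In 3 libraries the cells carried a plasmid for SETD8, the histone H4 lysine methyltransferase encoded by KMT5A, and had SETD8 overexpression as genotype, and in 3 they carried an empty vector and were labelled WT. All were transduced with lentivirus and selected in puromycin as stable clones, while the design text speaks of transfection. The sources used here do not give the number of clones, so clone differences and effects of SETD8 cannot be told apart. In such bulk RNA, fewer cells that express a gene and less RNA per cell cannot be told apart. Nothing says that replicates were separate cultures, so p-values measure the spread between these libraries, which may be technical.

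Totals were 17056672 to 18785454 counted reads in SETD8 libraries and 17187722 to 20471843 in vector libraries, where 3 counts correspond to 0.15 to 0.17 CPM (counts per library size, scaled by TMM). Such a floor covers counting error only. KMT5A stood at 65.4, 66.2 and 75.5 CPM in SETD8 replicates 1, 2 and 3 and at 46.0, 47.3 and 53.9 CPM in vector replicates 1, 2 and 3, a log2 fold change of 0.49 (edgeR adjusted p = 0.0156; 0.0579 to 0.0965 without SETD8 replicate 1, 2 or 3 or vector replicate 2). The 10 markers listed for colorectal epithelium summed to 11260 to 12720 CPM in SETD8 and 10770 to 13290 CPM in vector libraries. The keratin genes KRT8, KRT18 and KRT19 held most of these sums, with means of 6304, 1886 and 3457 CPM in SETD8 libraries. In vector libraries their means were 6697, 2212 and 3124 CPM. CDX2 stood at 30.3 and 27.1 CPM in SETD8 and vector libraries. The differentiated enterocyte genes VIL1, CDH17, LGALS4 and CEACAM5 among the 10 markers were too low to test. Of these markers only CDH1, the E-cadherin gene, passed, with 80.7 ± 5.43 CPM in SETD8 and 117 ± 21.5 CPM in vector libraries (SD, n = 3 each; log2 fold change -0.54, edgeR adjusted p = 0.0218; 0.0522 to 0.138 with any library but vector replicate 1 left out). Its part in the ABC results was not tested. Fibroblast markers summed to 3.50 to 4.83 CPM in SETD8 and 4.80 to 7.203 CPM in vector libraries, with COL1A2 and DCN at 0 throughout. Endothelial markers summed to 1.11 to 1.80 CPM in SETD8 and 1.20 to 2.25 CPM in vector libraries (KDR at 0). Immune markers summed to 0.16 to 0.41 CPM in SETD8 and 0.38 to 0.50 CPM in vector libraries (PTPRC and CD3E at 0), and HEK293-like markers to at most 0.37 CPM in SETD8 and 0.058 CPM in vector libraries. The part of these other cell types in the ABC results was not tested.

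Of the 45 ABC genes, 29 had enough counts to test, and 5 of these fell in SETD8 libraries while 0 rose (edgeR quasi-likelihood test, threshold of 0.05 on the Benjamini-Hochberg adjusted p). All 5 belong to subfamilies A and C: the exporter genes ABCC3 and ABCC1 and the lipid transporter genes ABCA2, ABCA7 and ABCA12. The 5 genes were 17.2% of the tested ABC genes; among all 14370 genes tested 7.83% passed, 4.75% as lower and 3.08% as higher. These were 682 lower and 443 higher genes, or 505 lower and 792 higher ones with library totals in place of TMM. At an unadjusted p under 0.05, 8 ABC genes were lower and 0 higher, against 13.8% lower and 12.3% higher of all genes tested, and DESeq2 and limma-voom also called 0 higher. The median log2 fold change of the tested ABC genes was -0.11, against 0.00047 for all genes tested; that of the ABC genes was -0.066 with library totals, -0.064 with limma-voom and -0.050 with length correction. Their values lay below 0 in 20 genes, or 69.0%, against 50.0% of all genes, and ABCA3 and ABCD3 among them changed sign with library totals. SETD8 libraries lay wholly below vector libraries in 10 ABC genes and wholly above in 2. Groups were apart in 30.3% of all genes, with SETD8 below in 15.9% and above in 14.4%. The median is 1 figure over genes of very different level, and 16 of the 29 lay within 0.2 of 0 on the log2 scale.

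**Figure D1:**
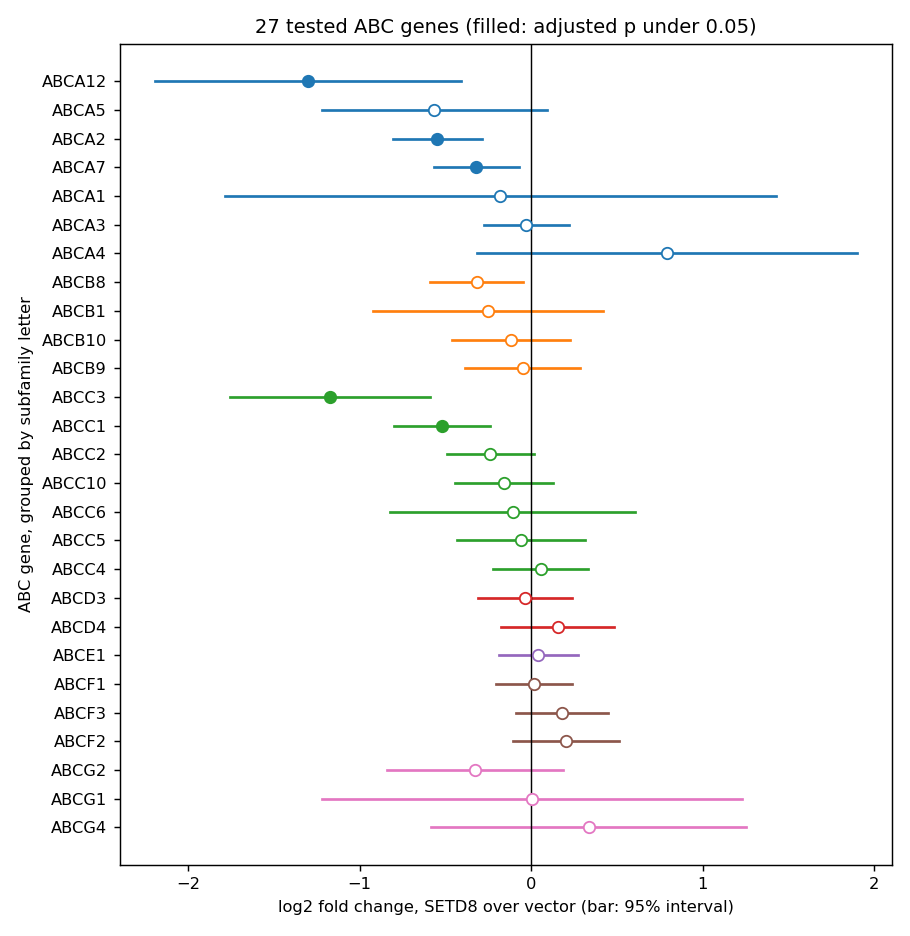
Log2 fold change of SETD8 over vector libraries (x axis) for 27 tested ABC genes (y axis), coloured by subfamily, with bars for 95% intervals from the residual degrees of freedom of the libraries; filled points passed at an adjusted p under 0.05. The filled points are ABCA12, ABCA2, ABCA7, ABCC3 and ABCC1, all left of 0, and the subfamily D, E and F genes lie between -0.04 and 0.20.

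ABCC3 had the largest fold among the tested subfamily C genes, while ABCC1 had the larger difference in CPM. It encodes MRP3, a basolateral exporter of glucuronides and bile acid conjugates (ENSG00000108846; chromosome 17, 50634777 to 50692252, plus strand, GRCh38). Its levels were 10.5, 12.1 and 10.5 CPM in SETD8 replicates 1, 2 and 3, against 15.6, 29.2 and 30.0 CPM in vector replicates 1, 2 and 3. The SETD8 libraries lay close together and below every vector library, and vector replicate 1 was nearer to them than to the other vector libraries. Means were 11.04 ± 0.93 and 24.9 ± 8.08 CPM in SETD8 and vector libraries (SD, n = 3 each), a level 2.25-fold lower with SETD8 (log2 fold change -1.17, SE 0.21, edgeR adjusted p = 0.00989).

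ABCC1 fell as well, by a smaller factor from a higher level. It encodes MRP1, which exports glutathione conjugates and several anticancer drugs (ENSG00000103222; chromosome 16, 15949577 to 16143074, plus strand). SETD8 replicates 1, 2 and 3 had 78.1, 94.8 and 86.0 CPM, and vector replicates 1, 2 and 3 had 112, 125 and 135 CPM. No SETD8 library reached the lowest vector library. The means of 86.3 ± 8.38 and 124 ± 11.8 CPM (SD, n = 3 each) gave a level 1.43-fold lower with SETD8 (-0.52 on the log2 scale, SE 0.10; edgeR adjusted p = 0.0123).

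The other 5 tested subfamily C genes did not pass. ABCC2 encodes MRP2, the apical exporter of conjugates, and had 65.5, 74.3 and 77.0 CPM in SETD8 libraries and 84.7, 82.3 and 88.5 CPM in vector libraries. These groups did not overlap either. The log2 fold change of -0.24 (95% interval -0.49 to 0.015) missed the threshold (edgeR unadjusted p = 0.0211, adjusted p = 0.120). ABCC4, an exporter of cyclic nucleotides and prostaglandins, had a log2 fold change of 0.05 (-0.22 to 0.33), and ABCC5, which also exports cyclic nucleotides, had -0.06 (-0.44 to 0.31). ABCC10 stood at -0.16 (-0.44 to 0.13). ABCC6 lies 3′ of ABCC1 on the opposite strand of chromosome 16 (16148928 to 16223522), is needed to keep soft tissue free of mineral, and had a log2 fold change of -0.11 with a wide interval of -0.82 to 0.61. ABCC6 has pseudogene copies, of which ABCC6P1 held 1 count in SETD8 and 2 counts in vector libraries in all, so how reads were split between copies is uncertain.

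**Figure D2:**
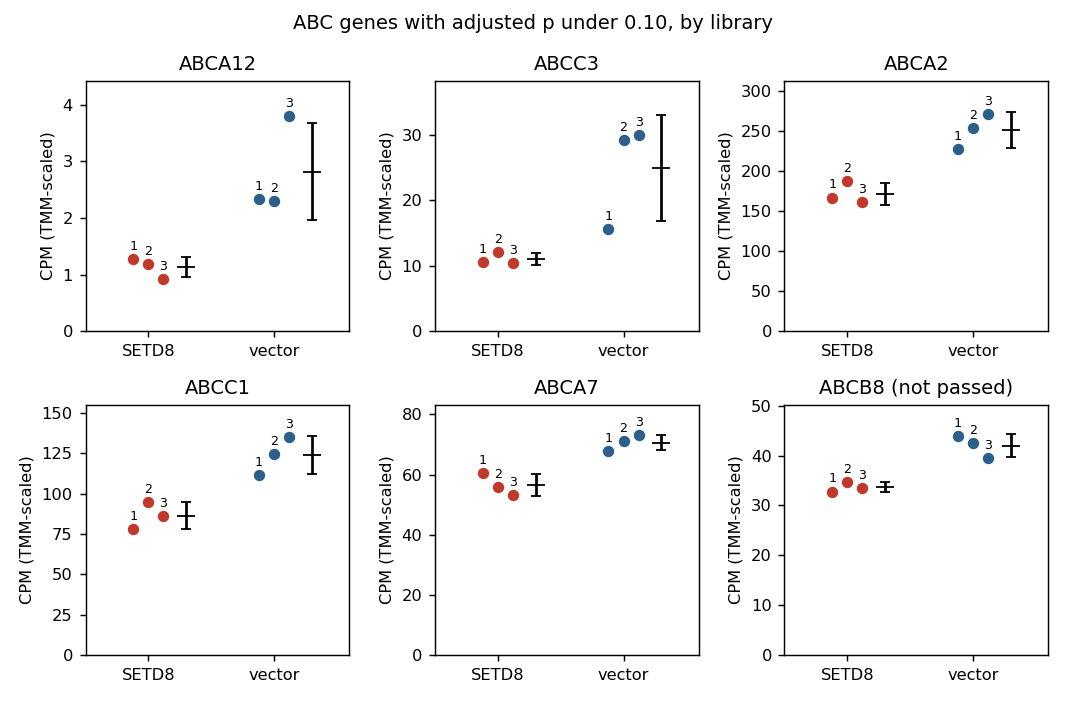
CPM (y axis, from 0) in each SETD8 and vector library (x axis; small digits are replicate numbers) for the 6 ABC genes with an adjusted p under 0.10, with the mean and SD of 3 libraries to the right of each group. In ABCC3 the SETD8 libraries lie at 10.5 to 12.1 CPM and vector replicate 1, at 15.6 CPM, lies below the other vector libraries at 29.2 and 30.0 CPM; ABCB8 did not pass.

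Of 7 tested subfamily A genes, 3 fell. ABCA2, a lysosomal and endosomal lipid transporter gene (ENSG00000107331; chromosome 9, 137007227 to 137028922, minus strand), had 167, 188 and 161 CPM in SETD8 replicates 1, 2 and 3 and 228, 254 and 272 CPM in vector replicates 1, 2 and 3. All SETD8 libraries lay below all vector libraries. Averages of 172 ± 13.7 and 251 ± 22.2 CPM (SD, n = 3 each) put ABCA2 1.46-fold lower with SETD8 (log2 fold change -0.55, SE 0.09, edgeR adjusted p = 0.00807). In CPM this was the largest single difference among the ABC genes, at -79.3 CPM.

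ABCA7 moves phospholipids across membranes and is known as an Alzheimer disease risk gene (ENSG00000064687; chromosome 19, 1040101 to 1065572, plus strand). Its levels were 60.6, 55.9 and 53.3 CPM in SETD8 libraries, against 67.8, 71.1 and 73.0 CPM in vector libraries, again without overlap. The log2 fold change of -0.32 (SE 0.09) passed narrowly (edgeR adjusted p = 0.0474). It did not pass with library totals (edgeR adjusted p = 0.0751), length correction (0.127) or the replicate block (0.0690). Nor did it pass with the block added to length correction (edgeR adjusted p = 0.169) or to GC correction (0.0636).

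ABCA12, which loads lipids into the lamellar granules of keratinocytes (ENSG00000144452; chromosome 2, 214931542 to 215138428, minus strand), had the largest fold of the family at a low level. SETD8 replicates 1, 2 and 3 had 1.27, 1.19 and 0.93 CPM and vector replicates 1, 2 and 3 had 2.34, 2.30 and 3.80 CPM. The groups did not overlap, and vector replicate 3 stood highest. ABCA12 was 2.46-fold lower with SETD8 (log2 fold change -1.30, SE 0.32, edgeR adjusted p = 0.0299). Its adjusted p was 0.0519 with length correction and the replicate block together.

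The remaining subfamily A genes did not pass. ABCA3, the surfactant lipid transporter gene of lung, had 64.4 ± 3.01 CPM in SETD8 and 65.8 ± 3.69 CPM in vector libraries (SD, n = 3 each; log2 fold change -0.03, 95% interval -0.28 to 0.22). ABCA5 had 3.71, 3.05 and 3.26 CPM in SETD8 and 4.52, 3.84 and 6.51 CPM in vector libraries (log2 fold change -0.56, edgeR adjusted p = 0.151). It lies on chromosome 17 beside ABCA6, ABCA8, ABCA9 and ABCA10, none of which had over 4 counts in all 6 libraries. ABCA1, which exports cholesterol to apolipoproteins, was near the detection limit at 0.51 ± 0.20 and 0.59 ± 0.41 CPM in SETD8 and vector libraries. ABCA4, the retinal transporter gene, was higher in SETD8 libraries in the fit (log2 fold change 0.79, 95% interval -0.31 to 1.90), with overlapping groups.

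Bases upstream of the start are shown for ABCA2 and ABCA7, the called members whose RefSeq start lies within 10 bases of the GENCODE start. They are also shown for ABCF1, the member with the highest level per kilobase of exon, which did not pass. Each run holds 250 bases that end just before the RefSeq start, on the strand of the gene, at chr9:137028923-137029172 (minus), chr19:1039857-1040106 (plus) and chr6:30571192-30571441 (plus) of GRCh38.p14. Capitals mark exact matches, on either strand, to a GC box (GGGCGG), the core of a TEAD site (GGAATG) or an E-box (CACGTG).
ABCA2: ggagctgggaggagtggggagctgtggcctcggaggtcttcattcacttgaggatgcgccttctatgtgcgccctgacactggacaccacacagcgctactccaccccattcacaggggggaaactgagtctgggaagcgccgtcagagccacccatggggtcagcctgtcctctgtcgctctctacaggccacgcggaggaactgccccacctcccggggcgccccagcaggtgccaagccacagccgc
ABCA7: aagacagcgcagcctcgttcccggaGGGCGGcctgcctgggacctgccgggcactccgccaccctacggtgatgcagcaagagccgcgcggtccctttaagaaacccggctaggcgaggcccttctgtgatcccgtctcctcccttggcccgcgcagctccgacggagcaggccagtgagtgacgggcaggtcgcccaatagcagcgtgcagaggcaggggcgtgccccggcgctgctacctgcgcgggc
ABCF1: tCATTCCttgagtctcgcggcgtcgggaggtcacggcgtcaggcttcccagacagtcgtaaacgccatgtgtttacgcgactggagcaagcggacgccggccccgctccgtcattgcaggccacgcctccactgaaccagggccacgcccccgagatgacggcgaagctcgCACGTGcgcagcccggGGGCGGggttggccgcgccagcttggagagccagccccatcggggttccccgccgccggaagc
RefSeq windows were at hand for 35 of the 45 members. A GC box stood in 17 of these 35, a TEAD core in 8 and an E-box in 6. Of all 35116 windows of this length, 42.6%, 11.9% and 6.34% held them. Of the 8 windows with a TEAD core, 6 were among the 12 of untested members and 2 among the 20 of members that did not pass. The windows of the untested ABCG5 and ABCG8, each with a TEAD core, overlap. The RefSeq starts used for ABCG8 and ABCB9 lie 7029 and 6535 bases from the GENCODE start. In the 3 members that fell and have a window, the numbers were 1, 0 and 0. TEAD proteins are the DNA partners of YAP, the subject of the study's title; that these letters are missing in a window of this size says nothing of binding elsewhere.

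None of the 5 tested subfamily B genes passed by edgeR or limma-voom, and 1 did by DESeq2, although all 5 had negative log2 fold changes. ABCB8, a mitochondrial inner membrane transporter gene, came closest, with 32.8, 34.7 and 33.5 CPM in SETD8 replicates 1, 2 and 3 and 43.9, 42.5 and 39.4 CPM in vector replicates 1, 2 and 3. The groups did not overlap (-0.32 on the log2 scale, SE 0.10; edgeR adjusted p = 0.0633), and ABCB8 passed with DESeq2, with GC correction and without vector replicate 3 (adjusted p = 0.0488, 0.0483 and 0.0363). ABCB10, which acts in haem synthesis of red cell precursors, had -0.12 (-0.46 to 0.23). ABCB9, a lysosomal peptide transporter gene, had -0.05, but 24.5% of its exon length overlaps genes on the other strand, and whether the counting used strand is unknown, so its value is uncertain. ABCB1 encodes P-glycoprotein, the classic multidrug efflux pump. It was low, at 2.75, 4.24 and 2.68 CPM in SETD8 and 4.14, 3.59 and 3.80 CPM in vector libraries, with overlapping groups (log2 fold change -0.25, 95% interval -0.92 to 0.42).

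The 3 tested subfamily G genes did not pass, with 0 calls by edgeR, DESeq2 or limma-voom and 0 at an unadjusted p under 0.05. ABCG2, the breast cancer resistance protein gene, had 5.08, 4.81 and 4.54 CPM in SETD8 and 5.56, 5.59 and 7.03 CPM in vector libraries. SETD8 libraries lay lower throughout, yet the interval of the log2 fold change (-0.33, 95% interval -0.84 to 0.18) reached past 0 (edgeR adjusted p = 0.277). The sterol exporter genes ABCG1 and ABCG4 had 0.73 ± 0.22 and 1.89 ± 0.16 CPM in SETD8 and 0.73 ± 0.16 and 1.51 ± 0.48 CPM in vector libraries (SD, n = 3 each). At such levels their intervals spanned -1.22 to 1.23 and -0.58 to 1.25, so only large differences were detectable.

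None of the 7 tested genes of subfamilies D, E and F passed by edgeR, DESeq2 or limma-voom, and 0 had an unadjusted p under 0.05. ABCD3, which imports branched-chain fatty acids into peroxisomes, had 54.2 ± 5.87 CPM in SETD8 and 55.7 ± 1.32 CPM in vector libraries (SD, n = 3 each; log2 fold change -0.04, 95% interval -0.31 to 0.24), with overlapping groups. ABCD4, needed for lysosomal export of cobalamin, had 16.0, 17.6 and 16.9 CPM in SETD8 and 14.8, 15.9 and 14.8 CPM in vector libraries, above them without overlap but short of the threshold (log2 fold change 0.15, edgeR adjusted p = 0.438).

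ABCE1, which splits ribosomes after termination, had 156, 146 and 141 CPM in SETD8 and 141, 139 and 151 CPM in vector libraries (log2 fold change 0.04, 95% interval -0.19 to 0.27). Genes on the other strand overlap 11.9% of its exon length. ABCF1, which binds the initiation factor eIF2, had 118, 116 and 116 CPM in SETD8 and 111, 118 and 119 CPM in vector libraries (0.01, -0.21 to 0.24). In both genes the groups overlapped. ABCF3, related to the yeast protein Gcn20, had 92.7, 94.99 and 90.0 CPM in SETD8 and 89.1, 85.1 and 71.0 CPM in vector libraries, with SETD8 above throughout (log2 fold change 0.18, edgeR adjusted p = 0.260). ABCF2 had a log2 fold change of 0.20 (edgeR adjusted p = 0.270) and among the alternatives passed as higher only without vector replicate 1 (0.0445). A second protein-coding annotation on the same strand covers 45.8% of the exon length of ABCF2 and held 2 counts in all; how reads on the shared part were assigned is unknown.

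**Figure D3:**
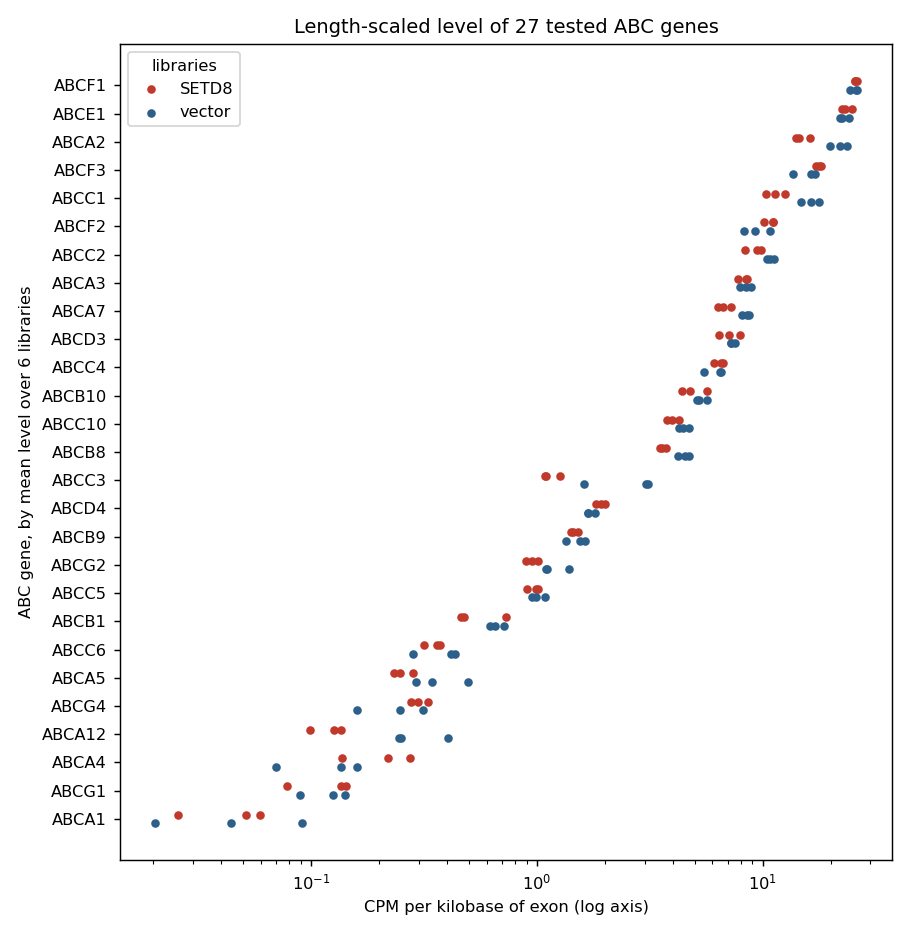
Level per length (x axis, CPM per kilobase of exon, log axis) of 27 tested ABC genes (y axis, ordered by the mean of 6 libraries), with 1 point per SETD8 (red, upper) and vector (blue, lower) library. ABCF1, at 25.9 in SETD8 and 25.6 in vector libraries on average, is highest, and ABCA1, at 0.045 and 0.052, is lowest.

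Per kilobase of exon, the ribosome-bound members and 2 transporters dominated the family in both groups. Mean levels in SETD8 and vector libraries were 25.9 and 25.6 CPM per kilobase for ABCF1, 23.6 and 22.9 for ABCE1, 14.9 and 21.8 for ABCA2, 17.8 and 15.7 for ABCF3, and 11.4 and 16.3 for ABCC1. The drug pumps ABCB1 and ABCG2 were much lower, at 0.56 and 0.95 in SETD8 and 0.66 and 1.20 in vector libraries. ABCC3 lay at 1.15 in SETD8 and 2.59 in vector libraries. By these means, ABCA2 and ABCC1 stood below ABCF3 in SETD8 libraries and above it in vector libraries. ABCC1 still stood below ABCF3 in vector replicate 1.

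Summed over its members, subfamily A reached 302, 316 and 282 CPM in SETD8 and 374, 395 and 423 CPM in vector libraries, and subfamily C reached 257, 286 and 272 CPM in SETD8 and 321, 335 and 359 CPM in vector libraries. Both sums lay apart without overlap. Subfamily B summed to 87.8, 91.4 and 94.9 CPM in SETD8 and 109, 104 and 102 CPM in vector libraries, also without overlap. Subfamily D overlapped (94.1 ± 7.18 and 94.5 ± 1.38 CPM in SETD8 and vector libraries, SD, n = 3 each). Subfamily F lay higher in SETD8 libraries without overlap, at 255 ± 2.66 CPM, against 237 ± 10.8 CPM in vector libraries. Over all 45 members the sum was 1167 ± 29.2 CPM in SETD8 and 1324 ± 37.4 CPM in vector libraries, a net difference of -157 CPM. The 5 genes that fell, picked by their fall in these same libraries, differed by -146 CPM together. Differences of both signs among the other members partly offset each other. No test was applied to these sums, since the members were chosen with results known and few genes make up most of each.

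The 16 members left untested had 0 to 53 counts over the 6 libraries. ABCB4, ABCB5, ABCB11, ABCD2 and ABCG8 had 0 counts in each library. Those with 1 to 11 counts in all numbered 9, and include ABCG5, the partner of ABCG8 in sterol export, and the potassium channel subunit genes ABCC8 and ABCC9. ABCC11 had 13 counts in SETD8 and 12 counts in vector libraries in all. ABCB6, a porphyrin transporter gene, had 15 counts in SETD8 and 38 counts in vector libraries, but a second protein-coding annotation on the same strand covers 54.7% of its exon length, and how reads on the shared part were assigned is unknown.

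ABC transcripts are long, and fold changes in these libraries ran with length. The median exon length was 7804 bases for the tested ABC genes and 4745 bases for all genes tested, and 24 of the 29 were longer than that of all genes. Over all genes, the median log2 fold change was 0.19 in the shortest length decile and -0.16 in the longest, and 13 ABC genes lay in the 2 longest deciles. Set against the median of its own decile, an ABC gene was lower in 17 and higher in 12 cases, with a median difference of -0.045. ABCA12, ABCC3, ABCC1, ABCA2 and ABCA7 lay below theirs by -1.19, -1.06, -0.46, -0.38 and -0.21. With each library's length trend removed, ABCC3, ABCC1, ABCA2 and ABCA12 still passed and the median of the ABC genes was -0.050.

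**Figure D4:**
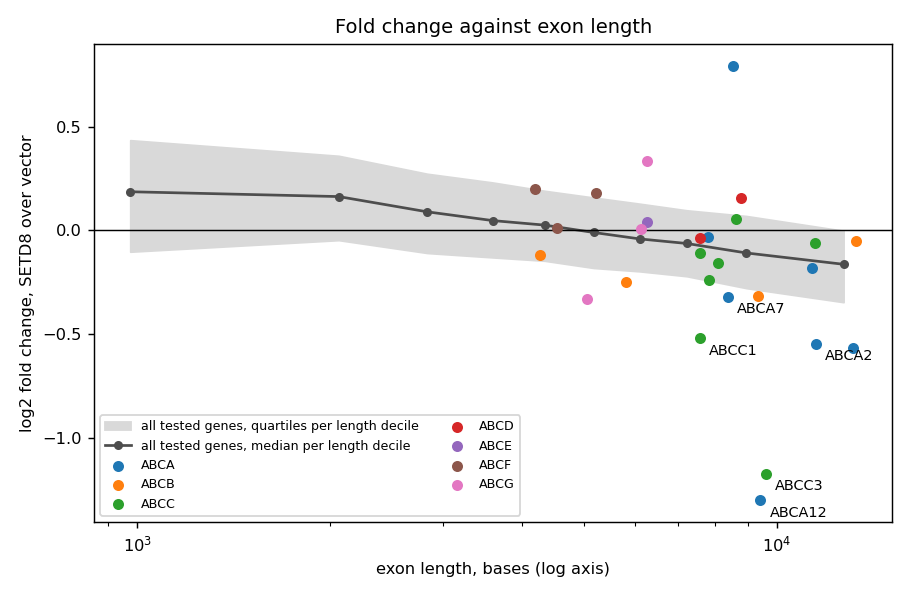
Log2 fold change of SETD8 over vector libraries (y axis) against exon length in bases (x axis, log axis): points are 27 tested ABC genes by subfamily, the dark line the median and the grey band the quartiles of all 14370 genes per length decile. The line falls with length, and the 5 named genes that passed lie below it.

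With 1 library left out, the 5 genes kept their direction but not all their calls. ABCA2, ABCC1 and ABCC3 passed without SETD8 replicate 2, vector replicate 1 or vector replicate 3, and none of the 5 passed without SETD8 replicate 1, SETD8 replicate 3 or vector replicate 2. Log2 fold changes over the 6 fits were -0.62 to -0.48 for ABCA2, -0.59 to -0.45 for ABCC1 and -1.42 to -1.02 for ABCC3. Adjusted p reached at most 0.0651, 0.0936 and 0.0695 for these genes. ABCA12 ranged over -1.42 to -1.03 and ABCA7 over -0.37 to -0.28, and each passed only without vector replicate 1 (edgeR adjusted p up to 0.119 and 0.203). Over all genes, the calls without vector replicate 1 were 1738 lower and 1771 higher, without vector replicate 2 they were 47 and 25, and without SETD8 replicates 1, 2 and 3 they were 10 and 1, 110 and 45, and 84 and 45. Without vector replicate 3 they were 644 and 449, near the 682 and 443 of all 6 libraries. Vector replicate 1 was nearer to the SETD8 mean than to the mean of the other vector libraries in 14 of the 29 ABC genes, against 12 for vector replicate 2 and 8 for vector replicate 3.

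**Figure D5:**
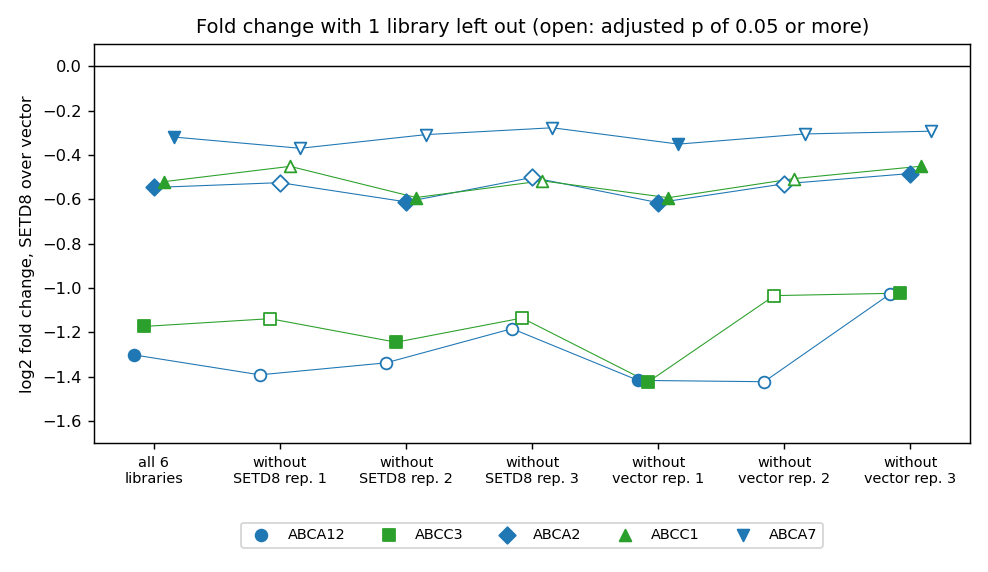
Log2 fold change of SETD8 over vector libraries (y axis) for the 5 ABC genes that passed with all 6 libraries, and with 1 library left out in turn (x axis); filled points have an adjusted p under 0.05. All points lie below 0, and every point is open without SETD8 replicate 1, SETD8 replicate 3 or vector replicate 2.

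Of 2 tested superfamily genes with other symbols, 1 rose. TAP2, a subunit of the peptide transporter for antigen presentation, had 30.4, 33.2 and 38.6 CPM in SETD8 and 27.7, 25.5 and 20.9 CPM in vector libraries and rose narrowly (log2 fold change 0.46, edgeR adjusted p = 0.0492; 0.0520 with limma-voom, 0.0566 with the replicate block, and 0.0726 to 0.213 with any library but vector replicate 1 left out). Its partner TAP1 overlapped (-0.09, edgeR adjusted p = 0.668), and the chloride channel gene CFTR held 0 counts in SETD8 and 2 counts in vector libraries. Of 16 tested regulators, 2 rose and 2 fell, with a median of -0.04. AHR, the aryl hydrocarbon receptor gene, rose to 20.7 ± 1.66 CPM in SETD8, against 11.2 ± 1.97 CPM in vector libraries (SD, n = 3 each; log2 fold change 0.89, edgeR adjusted p = 0.00699), and the retinoid receptor gene RXRB rose by 0.49 (edgeR adjusted p = 0.0312). The fatty acid receptor gene PPARD fell by 0.34 on the log2 scale (edgeR adjusted p = 0.0287), as did the liver and gut factor gene HNF4A by 0.57 (edgeR adjusted p = 0.0350; 0.0567 with length correction). NFE2L2, which encodes NRF2, an activator of several subfamily C genes, had 82.8 ± 3.43 CPM in SETD8 and 82.7 ± 10.6 CPM in vector libraries (SD, n = 3 each) and was added after its values were seen. AHR lost its call without SETD8 replicate 1 or vector replicate 2 (edgeR adjusted p = 0.0508 and 0.0549), and RXRB, PPARD and HNF4A lost theirs without any 1 SETD8 library or vector replicate 2 (0.0868 to 0.152).

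Of 17 tested enzymes that make or handle the conjugates exported by subfamily C proteins, 2 rose and 0 fell by edgeR, with a median of -0.04. At an unadjusted p under 0.05, 5 were higher and 3 lower, DESeq2 called 4 and 1, and limma-voom 2 and 0. Of the UDP-glycosyltransferase (UGT) genes listed, only UGT8 was tested. The others, UGT1A1, UGT1A6, UGT1A8, UGT1A10 and UGT2B7, had 0 counts in each library. GCLM, the regulatory subunit gene of glutathione synthesis, had 79.1, 72.9 and 81.1 CPM in SETD8 and 52.1, 49.0 and 53.1 CPM in vector libraries (log2 fold change 0.60, SE 0.09, edgeR adjusted p = 0.00515). GGT1, which breaks down extracellular glutathione, rose by 0.44 (edgeR adjusted p = 0.0435). Without SETD8 replicate 1, GCLM had an adjusted p of 0.0508 by edgeR, and GGT1 had 0.115 to 0.184 without any 1 SETD8 library or vector replicate 2. The sulfotransferase gene SULT2B1 (-0.91) and the microsomal transferase gene MGST1 (0.41) lay just outside (edgeR adjusted p = 0.05003 and 0.0522), and DESeq2 placed both past the threshold (0.0331 and 0.0213).

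Of 9 tested uptake carriers, SLCO1B3, which takes organic anions and bile acids into liver cells and is also known from colorectal tumours, rose 3.24-fold and 0 fell by edgeR or limma-voom, against 1 that fell by DESeq2 and 2 at an unadjusted p under 0.05. It had 4.66, 3.21 and 4.13 CPM in SETD8 and 1.20, 0.85 and 1.67 CPM in vector libraries, without overlap (log2 fold change 1.70, SE 0.30, edgeR adjusted p = 0.00848; 0.0508 to 0.0638 without SETD8 replicate 1, SETD8 replicate 3 or vector replicate 2). SLC22A18 (-0.44, edgeR adjusted p = 0.0535), SLCO3A1 (-0.38, 0.119) and SLCO4A1 (-0.18, 0.2004) did not pass. SLC22A18 passed as lower with DESeq2, with GC correction, without the low-count filter and without vector replicate 1 (adjusted p = 0.0369, 0.0476, 0.0396 and 0.0165), and SLCO3A1 without vector replicate 1 (0.0115).

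None of the 13 partners of ABCE and ABCF proteins in translation passed in the main edgeR fit (TMM, low-count filter, all 6 libraries), DESeq2 or limma-voom. The same held for the 8 tested partners of sterol efflux. Medians were -0.04 and -0.12, and 3 and 2 of these partners had an unadjusted p under 0.05. The lowest adjusted p values were those of EIF2S3, an eIF2 subunit gene (log2 fold change -0.26, edgeR adjusted p = 0.0754), and SCARB1, the HDL receptor gene (-0.25, 0.0764). Without the low-count filter, EIF6, which keeps ribosomal subunits apart, and LTN1, a ubiquitin ligase of stalled ribosomes, passed as higher and lower (edgeR adjusted p = 0.00202 and 0.0441). EIF6 also passed with GC correction and the replicate block (0.0276), EIF2S3 with length correction (0.0384) and SCARB1 with GC correction (0.0497). Leaving out vector replicate 1 placed EIF2S3, LTN1, EIF6, SCARB1 and MYLIP past the threshold (0.000906 to 0.0379), and leaving out vector replicate 3 did so for SCARB1 (0.0265). Among 16 partners of organelle transporters, SCP2, a peroxisomal lipid carrier gene, rose to 45.6 ± 0.67 CPM in SETD8, against 35.2 ± 1.64 CPM in vector libraries (SD, n = 3 each; log2 fold change 0.37, edgeR adjusted p = 0.0329; 0.0504 with the replicate block, and 0.104 to 0.138 without any 1 SETD8 library or vector replicate 2). None of the 16 fell by edgeR, DESeq2 or limma-voom, and 1 was lower at an unadjusted p under 0.05. The haem synthesis gene ALAS1 (0.31, edgeR adjusted p = 0.0627) and the iron-sulfur assembly genes ISCU (0.34, 0.150) and GLRX5 (0.42, 0.151) did not pass in the main fit. They passed as higher without the low-count filter (edgeR adjusted p = 0.0275, 0.0346 and 0.00204) and without vector replicate 1 (0.00673, 0.00153 and 0.000254). ALAS1 also passed with library totals (0.0284), with GC correction without and with the replicate block (0.0364 and 0.0411) and with DESeq2, which called 2 of the 16 higher (ALAS1 adjusted p = 0.0373).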

How the data were processed

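Poly(A)-selected RNA of 6 HCT116 samples was sequenced with a strand-marking kit, per the labels' protocols. The authors deposited whole-number read counts per Ensembl gene ID, not normalized. Per the submitters' processing notes, the tools were featureCounts, HTSeq, HISAT2 and STAR and the builds hg38 and GRCh38, with no role or version; the annotation and the strand used in counting are unknown. Columns named NC were taken as vector, the only group besides SETD8, with their number as the replicate. There were 0 columns of other samples.

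All 58735 IDs matched GENCODE 29, which gave symbols, positions, exon lengths, GC content and exon overlaps. The filter filterByExpr left 14370 genes. Groups were compared with edgeR 4.0.16 (limma 3.58.1, R 4.3.3): TMM scaling, robust quasi-likelihood test, two-sided, no covariates, Benjamini-Hochberg adjustment over all genes tested, threshold 0.05. The SE is the log2 fold change divided by the square root of F, and 95% intervals use 4 residual degrees of freedom. The test does not use these intervals, so an interval can include 0 at an unadjusted p under 0.05, as in ABCC2. The test was checked on simulated data.

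Members, context lists and the rule for named genes (every member past or near the threshold, the 2 highest of each subfamily, up to 4 genes of each context list by adjusted p) were chosen with earlier results of these data known; other members are given as well, except that some are not reported here by name, though all counts, medians and sums include them. Alternatives were RLE size factors, library totals, no low-count filter, one that asks for 1 CPM in each of the 3 libraries of either group, limma-voom, DESeq2 1.42.0, the replicate number as a block, length and GC corrections (lowess offsets, span 0.3) with and without the block, and each library left out. The labels give no batch shared by same-numbered libraries. Their deviations correlated at 0.025, 0.0078 and -0.064, against -0.095 to 0.092 for pairs of unlike number. Whether same-numbered libraries shared a batch was not tested. Groups of 3 are too small for an outlier test. Figures were drawn with matplotlib 3.10.9.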

Additional observations from a re-analysis of the deposited data

How the results depend on the processing

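The 5 lower and 0 higher ABC genes stayed within 1.5 times under the alternatives that kept all libraries, except length correction with the replicate block, which left 3 lower. Library totals, the replicate block, length correction, and GC correction with the block each left 4, and GC correction and DESeq2 gave 6. Leaving out 1 library gave 0 to 5 lower and 0 to 1 higher. The median of the ABC genes was -0.066 with library totals, -0.064 with limma-voom, -0.050 with length correction and -0.011 with length correction and the block, and -0.16 to -0.047 with 1 library left out. Over all genes, 682 fell and 443 rose; library totals gave 505 lower and 792 higher, no low-count filter 1051 and 949, DESeq2 907 and 739, and GC correction with the block 817 and 722. With 1 library left out, these counts were 10 to 1738 lower and 1 to 1771 higher. Fits with 1 library left out hold fewer samples. The cause of these and of the other shifts was not tested. The replicate block alone gave 645 lower and 532 higher genes, with ABCA7, TAP2 and SCP2 losing their call.

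Members near 0 changed sign in some fits, none of them called. With library totals ABCA3 and ABCD3 stood at 0.013 and 0.0058. With length correction ABCA3, ABCB9, ABCC5 and ABCD3 stood at 0.058, 0.12, 0.095 and 0.048, and with the block added they stood at 0.060, 0.13, 0.097 and 0.043 and ABCA1 at 0.010. ABCG1 stood at -0.015 with limma-voom, -0.0047 with the replicate block and -0.0087 with GC correction and the block. Over left-out libraries the ranges crossing 0 were -0.54 to 0.48 (ABCA1), -0.062 to 0.0090 (ABCA3), -0.13 to 0.0071 (ABCB9), -0.014 to 0.098 (ABCC4), -0.11 to 0.0038 (ABCC5), -0.27 to 0.0053 (ABCC6), -0.12 to 0.037 (ABCD3), -0.021 to 0.035 (ABCF1) and -0.16 to 0.23 (ABCG1), and -0.21 to 0.036 for TAP1. Depth limits members under 1 CPM most.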

Other observations

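Rows with an ABC symbol that are not protein-coding numbered 16, and none had enough counts to test. The pseudogenes ABCA11P, with 31 counts in SETD8 and 9 counts in vector libraries, and ABCA17P, with 29 and 19 counts, held the most. The antisense row ABCC5-AS1 held 1 count in SETD8 and 2 counts in vector libraries, and ABCA9-AS1 held 0. ANAPC10, which overlaps ABCE1 on the other strand, rose in SETD8 libraries, with 197 counts in SETD8 and 85 counts in vector libraries (log2 fold change 1.23, edgeR adjusted p = 0.0247); it was singled out after its values were seen, and how reads on the shared part were assigned is unknown.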
